A study of Homo sapiens with 12 samples.

Results

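The genes described here code for the subunits of the respiratory chain and ATP synthase that are made from nuclear DNA, together with cytochrome c. They were chosen by gene symbol alone, as rows of both expression tables whose Ensembl identifier maps to an NDUFA, NDUFB, NDUFC, NDUFS or NDUFV gene, an SDH subunit gene, a UQCR gene, a COX4 to COX8 gene, an ATP5F, ATP5M or ATP5P gene, CYC1 or CYCS, with 115 pseudogenes of the same names dropped. The rule found 88 genes among the 37247 rows of each table: 36 of complex I, 4 of complex II, 10 of complex III, 1 for cytochrome c, 18 of complex IV and 19 of complex V. NDUFA4 was counted with complex IV, where its protein belongs. A filter on low values, a mean TPM (a transcript share, that is, a level scaled by transcript length and by the total of each library) of at least 1 over the 6 libraries of a line, left 80 of the 88 genes to test in each line. Expression was measured by RNA-seq in 2 human cancer cell lines that the series calls RET-aberrant. The lung line LC-2/ad was derived from an adenocarcinoma and the thyroid line TPC-1 from a papillary carcinoma, and in each a fusion of the RET receptor tyrosine kinase gene is known. Selpercatinib is an inhibitor of that kinase. The 4 groups were LC-2/ad parent cells, LC-2/ad cells after 48 h in 100 nM selpercatinib, TPC-1 parent cells, and TPC-1 cells after the same treatment, with 3 libraries each. Parent cells are labelled as having no treatment, with no word on the drug's solvent, so the drug and its solvent cannot be told apart. Nothing in the labels says that replicate libraries are separate cultures, and the p-values therefore rest on the spread between libraries, possibly a technical one. Each drug response rests on a single cell line per cancer type.

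The respiratory chain sits in the inner mitochondrial membrane. Complexes I and II pass electrons from NADH and succinate to ubiquinone, complex III passes them on to cytochrome c, and complex IV uses them to reduce oxygen, while complexes I, III and IV pump the protons that drive ATP synthesis by complex V. Complexes I, III, IV and V combine subunits from the nuclear and from the small mitochondrial genome, whereas complex II and cytochrome c are nuclear only. In cancer cells many nuclear subunit genes are known targets of the transcription factors NRF1 and GABP and of MYC.

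The tables hold no read counts, which leaves library depth unknown. A library listed 12554 to 14336 genes at 1 TPM or more. Lung markers NKX2-1, NAPSA, KRT7 and EPCAM were at a mean of at least 1 TPM in LC-2/ad parent cells, while SFTPC and the other surfactant genes were below that. In TPC-1 parent cells the thyroid markers PAX8 and FOXE1 were above that level, whereas NKX2-1 was at 0 and TG, TSHR and SLC5A5 were below 1 TPM. PAX8 and FOXE1 were also above 1 TPM in LC-2/ad. Blood markers summed to at most 2.51 TPM in any library, endothelial ones to at most 17.8 TPM (CDH5 and KDR in LC-2/ad) and fibroblast ones to at most 40.9 TPM. Some of these sums were higher in treated LC-2/ad libraries, where the members were lower: lung markers went from 2859 to 3071 TPM in parent libraries to 3799 to 3959 TPM, thyroid markers from 133 to 142 TPM to 196 to 203 TPM, and fibroblast markers from 28.9 to 34.0 TPM to 35.5 to 40.9 TPM. Of the tested genes of these lists, which share NKX2-1, 3 of 5 lung and 3 of 3 thyroid markers were called higher there. Of the 5 lung markers 1 was called lower. Over all genes tested in LC-2/ad 30.6% were called higher and 24.4% lower. In TPC-1 the lung sum (1976 to 2109 TPM, then 2460 to 2829 TPM) and the thyroid sum (163 to 242 TPM, then 265 to 295 TPM) were higher after treatment too. Their part in the members' results was not tested. The mitochondrial genome supplied 9.77% ± 0.05 (SD, n = 3) of all TPM in untreated LC-2/ad and 14.56% ± 0.49 in treated LC-2/ad. The corresponding TPC-1 shares were 6.97% ± 0.57 and 6.33% ± 0.49. Since TPM are shares of a fixed total, this change moves every nuclear gene a little, and the counts below are therefore also given with the mitochondrial genes removed.

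The nuclear subunit genes were among the more abundant transcripts of both lines. Their median TPM in parent cells was 171 for LC-2/ad and 181 for TPC-1, against 16.8 and 16.2 over all genes tested, and 78 of the 80 tested members lay above that median in each line. Within LC-2/ad parent cells the levels ran from 1.56 TPM for NDUFA6 to 1275 TPM for NDUFB9. Within TPC-1 they ran from 2.42 TPM for ATP5MF-PTCD1, a readthrough transcript that shares exons with ATP5MF and PTCD1, to 680 TPM for COX4I1. The 8 members below the filter in both lines were mostly isoforms known from muscle, testis or lung: COX4I2, COX6A2 and COX8C were listed at 0 in all 12 libraries, and COX6B2, COX7A1, COX7B2, UQCRHL and ATP5MGL had a mean below 1 TPM. The somatic partners of these isoforms, COX4I1, COX6A1, COX6B1, COX7A2, COX7B and COX8A, were all well expressed.

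**Figure D1:**
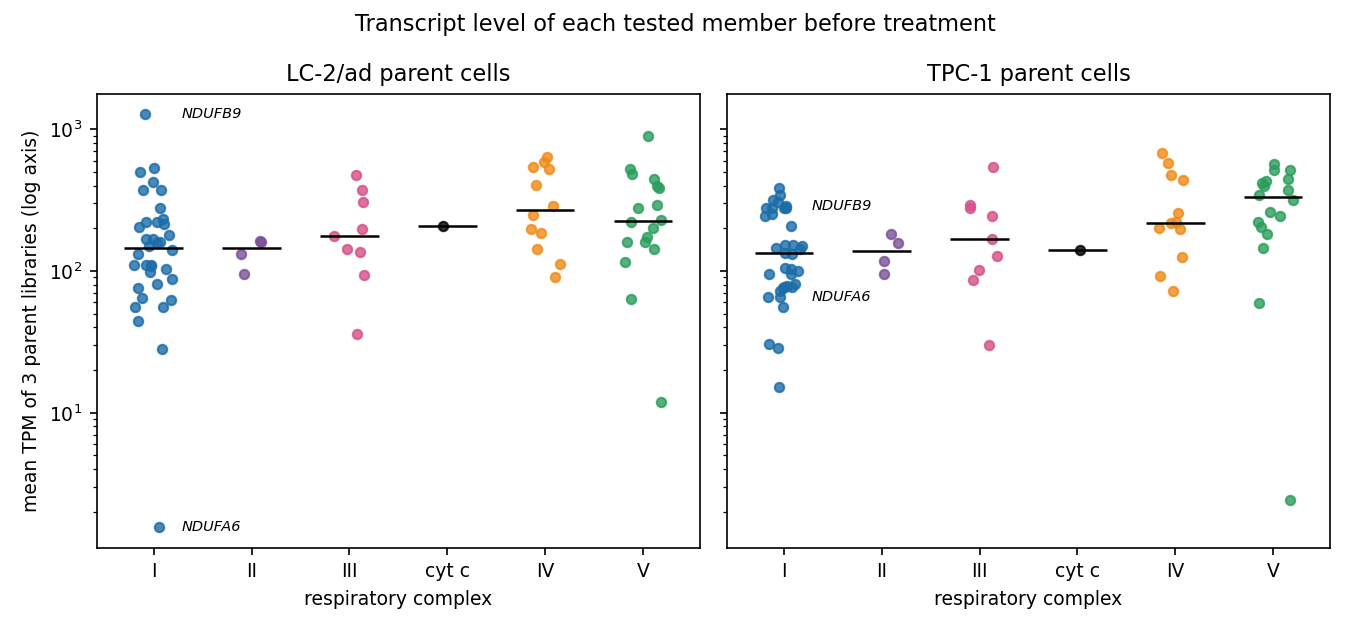
Mean TPM of 3 parent libraries (log axis) for each of the 80 tested members, by respiratory complex and line, with a bar at the median of each complex. NDUFB9 is the highest point of LC-2/ad at 1275 TPM, and NDUFA6 is the lowest at 1.56 TPM, whereas both lie among the other complex I genes in TPC-1.

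A pair of complex I genes stood at very different levels in the 2 tables. NDUFA6, an accessory subunit of complex I, was at 0.472, 2.2 and 2 TPM in parent LC-2/ad cells and at 2.02, 3.32 and 1.15 TPM after treatment. In TPC-1 it was at 72.1, 63.6 and 62 TPM in parent cells and at 61.8, 68.5 and 64.5 TPM after treatment. NDUFB9, another accessory subunit, was at 1292, 1261 and 1271 TPM in parent LC-2/ad cells and at 266, 306 and 286 TPM in TPC-1 parent cells. Each line has its own table of values, so no test was made between these levels, but the ranges of the lines lay far apart for both genes. NDUFB9 shares exon sequence with MTSS1 and TATDN1 on the opposite strand, and the sources used here do not say whether counting used strand. In all, 26 members share exon positions with another gene on the same strand and 35 with a gene on the opposite strand in GENCODE 29.

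To show the regulatory sequence of the genes that the results turn on, the 200 bases before the RefSeq start site are printed for the gene with the largest fall among those with a promoter at hand in complexes II (SDHB), III (UQCRH) and IV (COX8A), for the core complex I subunit with the largest fall (NDUFS7), for CYCS, and for the c-ring pair ATP5MC1 and ATP5MC2, which moved in opposite directions in LC-2/ad. The sequences are RefSeq's (GRCh38.p14), 5′ to 3′ on the strand of the gene, with capitals marking matches to an NRF1-type core (GCATGCG) or an ETS/GABP-type core (CCGGAAG) on either strand. NRF1 and the ETS factor GABP are known regulators of respiratory genes. For each of these genes the outermost GENCODE 29 transcript starts upstream of the RefSeq start, so transcribed sequence can lie within these stretches: all 200 bases lie inside the GENCODE gene for NDUFS7 and ATP5MC2, and a part of them for the others.
CYCS, chr7:25125261-25125460, minus strand: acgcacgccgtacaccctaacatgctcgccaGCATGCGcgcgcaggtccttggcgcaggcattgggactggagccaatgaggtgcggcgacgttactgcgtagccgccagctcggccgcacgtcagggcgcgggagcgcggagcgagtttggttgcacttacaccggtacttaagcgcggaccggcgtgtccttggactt
UQCRH, chr1:46303498-46303697, plus strand: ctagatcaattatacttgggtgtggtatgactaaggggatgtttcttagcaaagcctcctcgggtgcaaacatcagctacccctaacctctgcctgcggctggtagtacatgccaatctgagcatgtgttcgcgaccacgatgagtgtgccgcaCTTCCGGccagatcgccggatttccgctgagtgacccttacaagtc
COX8A, chr11:63974420-63974619, plus strand: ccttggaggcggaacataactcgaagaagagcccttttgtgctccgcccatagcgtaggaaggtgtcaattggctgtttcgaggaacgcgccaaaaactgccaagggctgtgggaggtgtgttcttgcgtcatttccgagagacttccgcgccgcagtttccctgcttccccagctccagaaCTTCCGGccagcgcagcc
NDUFS7, chr19:1383707-1383906, plus strand: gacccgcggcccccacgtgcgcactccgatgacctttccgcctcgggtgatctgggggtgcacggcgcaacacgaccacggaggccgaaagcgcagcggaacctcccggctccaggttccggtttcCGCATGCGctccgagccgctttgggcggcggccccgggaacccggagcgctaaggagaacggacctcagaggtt
SDHB, chr1:17054033-17054232, minus strand: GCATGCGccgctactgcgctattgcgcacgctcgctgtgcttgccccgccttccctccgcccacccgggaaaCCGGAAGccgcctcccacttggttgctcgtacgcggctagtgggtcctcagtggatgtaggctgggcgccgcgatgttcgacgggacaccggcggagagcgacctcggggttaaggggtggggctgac
ATP5MC1, chr17:48892587-48892786, plus strand: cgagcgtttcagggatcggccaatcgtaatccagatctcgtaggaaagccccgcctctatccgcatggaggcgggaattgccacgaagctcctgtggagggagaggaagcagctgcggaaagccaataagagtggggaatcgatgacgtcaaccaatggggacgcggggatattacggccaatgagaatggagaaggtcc
ATP5MC2, chr12:53676084-53676283, minus strand: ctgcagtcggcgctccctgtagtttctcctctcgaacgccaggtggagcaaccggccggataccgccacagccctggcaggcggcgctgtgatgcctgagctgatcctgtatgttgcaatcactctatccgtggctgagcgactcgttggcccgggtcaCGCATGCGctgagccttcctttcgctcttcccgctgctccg

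A match to these letters is a description of the sequence and not a binding site. Promoters of 300 bases, from 250 before to 50 after the start, were at hand for 69 of the 88 members and for 35116 promoters in all. The NRF1-type core was found in 20.3% of the members' promoters, 3.91% of all promoters and 6.42% of the promoters of genes tested in LC-2/ad. For the ETS/GABP-type core these shares were 29.0%, 10.3% and 19.6%, and for a YY1-type core (AAGATGG, both strands) 23.2%, 5.84% and 7.49%. The NRF1-type core is nearly its own reverse complement, so that CGCATGCG in NDUFS7 and ATP5MC2 was matched on both strands at overlapping positions. Any of the 3 cores was present in 55.1% of the members, 18.3% of all promoters and 29.6% of the 10223 promoters of genes tested in LC-2/ad. Among the members with a promoter, 21 of the 41 that were lower in treated LC-2/ad cells held one of the cores (51.2%), as did 17 of the 24 that were tested and not lower (70.8%). The shares are given as counts with no test. ATP5MC1, which was lower, held none in its 300 bases, and ATP5MC2, which was higher, held the NRF1-type core.

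In LC-2/ad most of the nuclear subunit genes were lower after selpercatinib, by modest amounts. Of the 80 tested members 51 fell, 1 rose (ATP5MC2) and 28 did not pass the test (limma on log2(TPM + 1), adjusted p under 0.05 over all 14118 genes tested). Over all those genes 24.4% were called lower and 30.6% higher, 55.0% together, so the drug response of this line was broad and the members' 63.8% lower is to be read beside that. The median log2 fold change was -0.27 over the members, with a range of -0.95 to 0.33, and 0.07 over all genes tested. At an unadjusted p under 0.05 there were 61 members, 59 of them lower, against 60.7% of all genes in either direction. In 56 of the 80 members (70.0%) all 3 treated libraries lay below all 3 parent libraries, which held for 27.6% of all genes tested. ATP5MC2 was the 1 tested member with all treated libraries above the parent ones, against 35.3% of all genes tested. On the scale used, a change of -0.27 in log2(TPM + 1) amounts for these abundant genes to nearly the same change in log2 TPM.

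The size and the number of these falls moved with the scaling, and the members' median stayed negative. With the mitochondrial genes removed and the rest rescaled, 44 members were lower and 4 higher, among them ATP5MC2, NDUFA5 and UQCRB, with a median of -0.19, while all genes split into 2833 lower and 5216 higher. With median-of-ratios scaling 66 members were lower and 0 higher, with a median of -0.37, and all genes split into 4318 lower and 3442 higher. The corresponding split with the TPM as deposited was 3451 lower and 4319 higher. Of the 52 member calls in LC-2/ad, 44 held in every alternative tried, and the 8 that were lost in at least 1 were those of ATP5F1E, ATP5MC2, NDUFA2, NDUFA8, NDUFB1, NDUFS1, NDUFS4 and SDHA. In bulk samples, fewer cells of a type and less RNA per cell cannot be told apart.

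Few of these genes changed in TPC-1. Of 80 tested members 1 fell (ATP5MC2) and 0 rose by limma, against 1.21% lower and 3.75% higher, 4.96% together, of the 12825 genes tested. At an unadjusted p under 0.05 there were 15 members, 12 of them lower, against 21.5% of all genes. The median of the members was -0.04, and that of all genes 0.05. All treated libraries lay below all parent libraries in 18 members (22.5%, against 9.23% of all genes) and above in 5 (6.25%, against 16.6%), and in 57 members the groups overlapped.

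**Figure D2:**
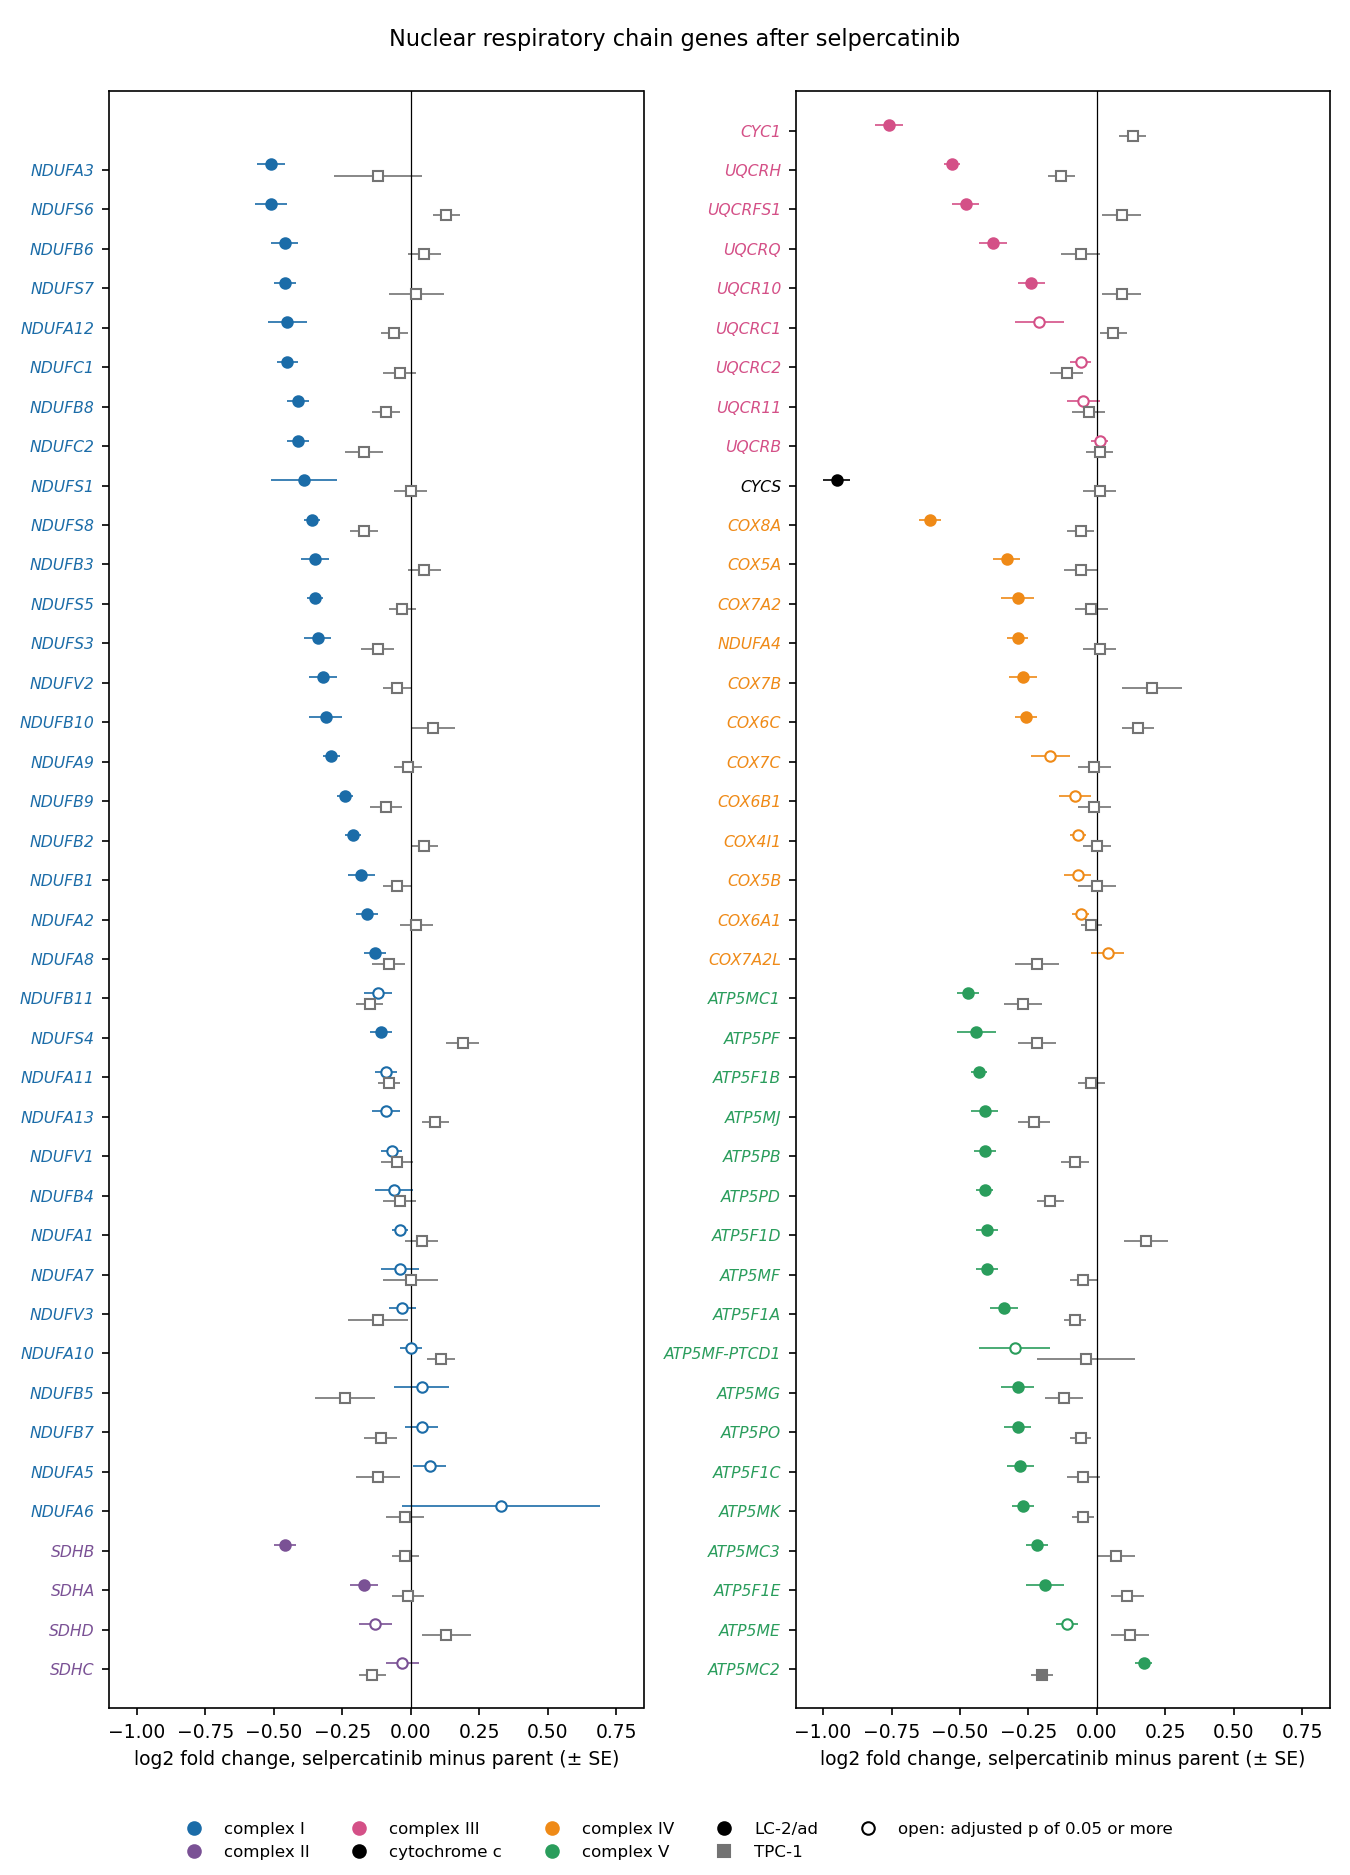
log2 fold change (selpercatinib minus parent, ± SE) of 79 tested members, ordered by complex and by the value in LC-2/ad, with LC-2/ad as coloured circles and TPC-1 as grey squares, filled where limma's adjusted p was under 0.05. In LC-2/ad 51 members are filled to the left of 0 and ATP5MC2 alone to the right, a rise that was not past the threshold with median-of-ratios scaling, while in TPC-1 only ATP5MC2 is filled.

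Summed over the 88 genes, LC-2/ad parent libraries held 18995, 19248 and 19117 TPM and treated ones 16045, 16020 and 15814 TPM. The treated sums were all lower, by 16.5% of the parent mean. In TPC-1 the parent sums were 17292, 17759 and 17276 TPM and the treated sums 16716, 17321 and 16920 TPM, which overlap, and the mean was lower by 2.62%. By complex, the LC-2/ad sum fell by 14.9% in complex I, by 11.3% in complex II, by 19.3% in complex III, by 13.6% in complex IV and by 19.3% in complex V. These are shares of the whole library. As a share of the TPM outside mitochondrial DNA, the members went from 2.12% ± 0.015 (SD, n = 3) to 1.87% ± 0.012 in LC-2/ad and from 1.88% ± 0.031 to 1.81% ± 0.028 in TPC-1.

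Complex I, the NADH dehydrogenase, had 22 of 36 tested genes lower in LC-2/ad, 0 higher and 14 that did not pass, with a median of -0.19. Over all genes tested in that line 24.4% were called lower and 30.6% higher. The 7 core subunits carry the flavin and the iron-sulfur clusters or help bind ubiquinone, and 5 of them fell (NDUFS1, NDUFS3, NDUFS7, NDUFS8 and NDUFV2). Of the 29 accessory subunits, which surround the core and are needed for assembly or stability, 17 fell. With the mitochondrial genes removed, 17 complex I genes were lower and 2 higher, against 19.7% and 36.3% of all genes. In TPC-1 no complex I gene passed the test, against 4.96% of all genes, and the median was -0.05. There the unadjusted p was under 0.05 for NDUFB11, NDUFB5, NDUFC2, NDUFS4, NDUFS6 and NDUFS8 of this complex, 4 with a negative and 2 with a positive fold change. That is a smaller share of the 36 genes than the 21.5% of all TPC-1 genes tested that passed this level.

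NDUFS7, a core subunit that binds the last iron-sulfur cluster before ubiquinone and whose promoter is printed above, was at 156, 160 and 160 TPM in parent LC-2/ad cells and at 112, 112 and 122 TPM in treated cells. The groups did not overlap, and the log2 fold change was -0.46 ± 0.04 (SE, limma adjusted p = 7.48e-05). In TPC-1 it was at 103, 111 and 87.1 TPM in parent cells and at 99.8, 111 and 93.4 TPM in treated cells, which overlap (0.02 ± 0.10, adjusted p = 0.934).

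The accessory subunit NDUFS6, which binds zinc, was at 343, 375 and 400 TPM in parent LC-2/ad cells and at 255, 265 and 263 TPM after treatment. Every treated library was below every parent library, with a log2 fold change of -0.51 ± 0.06 (adjusted p = 0.000157). In TPC-1 the same gene was at 136, 145 and 150 TPM in parent cells and at 157, 160 and 154 TPM in treated cells. There the treated libraries were all above the parent ones, by 0.13 ± 0.05, which did not pass the test (adjusted p = 0.208).

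NDUFA3, a small accessory subunit with a membrane helix, was at 42, 46.2 and 45 TPM in parent LC-2/ad cells and at 30.8, 31 and 30.8 TPM in treated cells. Its fall of 0.51 on the log2 scale had no overlap between groups (SE 0.05, adjusted p = 0.000131). NDUFB6, an accessory subunit of the membrane arm, was at 101, 104 and 107 TPM before and at 72, 73.3 and 80.3 TPM after treatment (-0.46 ± 0.05, adjusted p = 0.000186). NDUFC1, also of the membrane arm, was at 109, 109 and 106 TPM and then at 78.2, 81.6 and 76.3 TPM (-0.45 ± 0.04, adjusted p = 6.86e-05). In each of these genes the highest treated library stayed below the lowest parent library. NDUFA12, an accessory subunit at the joint of the arms, was at 140, 124 and 129 TPM and then at 102, 88.5 and 96.3 TPM (-0.45 ± 0.07, adjusted p = 0.00069). In TPC-1 the values of NDUFA3, NDUFB6, NDUFC1 and NDUFA12 ran from -0.12 to 0.05 and none passed.

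The most abundant complex I transcript of LC-2/ad, NDUFB9, went from 1292, 1261 and 1271 TPM to 1103, 1066 and 1079 TPM (-0.24 ± 0.03, adjusted p = 0.000158). In TPC-1, where NDUFS5 was the highest of the complex at 384 TPM, NDUFS5 was at 375, 398 and 379 TPM in parent cells and at 353, 388 and 385 TPM in treated cells (-0.03 ± 0.05, adjusted p = 0.774). The complex I genes that did not pass in LC-2/ad included the flavin-binding core subunit NDUFV1 at -0.07 ± 0.04 (adjusted p = 0.22). For NDUFA6 the log2 fold change in LC-2/ad had a 95% interval from -0.51 to 1.16 at its low level, so no direction can be read.

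Complex II, the succinate dehydrogenase, is the smallest complex and has no subunit from mitochondrial DNA. SDHB, its iron-sulfur subunit, was at 97.4, 92.9 and 97.3 TPM in parent LC-2/ad cells and at 67.2, 69.2 and 71.3 TPM in treated cells. The groups were well separated, with a log2 fold change of -0.46 ± 0.04 (adjusted p = 7.26e-05). SDHA, the flavin subunit that oxidises succinate, was at 171, 150 and 159 TPM and then at 144, 140 and 141 TPM, a smaller difference without overlap (-0.17 ± 0.05, adjusted p = 0.0212). The SDHA call was lost in 5 of 15 alternatives, with an adjusted p of up to 0.15 once mitochondrial genes were removed.

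The membrane anchors of complex II did not pass in LC-2/ad. SDHC was at 124, 140 and 130 TPM in parent cells and at 135, 127 and 122 TPM in treated cells, and SDHD was at 160, 173 and 154 TPM and then at 143, 157 and 146 TPM. Both pairs of groups overlap, at -0.03 ± 0.06 for SDHC (adjusted p = 0.646) and -0.13 ± 0.06 for SDHD (adjusted p = 0.0811). In TPC-1 parent cells SDHB was at 119, 114 and 120 TPM, SDHA at 161, 153 and 159 TPM, SDHC at 174, 186 and 184 TPM and SDHD at 95.7, 91.5 and 96.5 TPM. In treated TPC-1 cells they were at 119, 113 and 115 TPM for SDHB, 155, 168 and 147 TPM for SDHA, 160, 172 and 160 TPM for SDHC and 89.4, 114 and 108 TPM for SDHD. None of the 4 passed the test in that line, and the groups overlapped for all but SDHC, whose treated libraries were all lower (-0.14 ± 0.05, adjusted p = 0.167).

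Complex III passes electrons from ubiquinol to cytochrome c, and 5 of its 9 tested genes fell in LC-2/ad with 0 higher, at a median of -0.24. Of all genes tested in LC-2/ad, 24.4% were called lower and 30.6% higher. CYC1 codes for cytochrome c1, the haem subunit that hands the electron to cytochrome c. Its level was 213, 194 and 191 TPM in parent LC-2/ad cells and 116, 114 and 121 TPM in treated cells. The treated libraries stood well below the parent ones, at -0.76 ± 0.05 on the log2 scale (adjusted p = 1.17e-05), a mean lower by 41.4%. In TPC-1 CYC1 was at 128, 126 and 128 TPM and then at 138, 138 and 142 TPM, so the treated libraries were all higher there, by 0.13 ± 0.05 without passing the test (adjusted p = 0.149).

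UQCRH, the hinge protein between cytochrome c1 and cytochrome c and the most abundant complex III transcript of both lines, was at 465, 475 and 480 TPM in parent LC-2/ad cells and at 326, 321 and 333 TPM in treated cells. The groups did not overlap (-0.53 ± 0.03, adjusted p = 5.36e-06). In TPC-1 it was at 542, 565 and 525 TPM and then at 486, 508 and 496 TPM, also without overlap and with a change of -0.13 ± 0.05 that did not pass (adjusted p = 0.14). UQCRQ, known as a ubiquinone-binding protein, was at 368, 386 and 358 TPM and then at 267, 301 and 284 TPM in LC-2/ad (-0.38 ± 0.05, adjusted p = 0.000383). UQCR10, which had the smallest called fall of the complex, was at 149, 138 and 141 TPM and then at 113, 127 and 124 TPM (-0.24 ± 0.05, adjusted p = 0.00726). The core proteins UQCRC1 and UQCRC2 and the small subunits UQCR11 and UQCRB did not pass, at -0.21, -0.06, -0.05 and 0.01.

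UQCRFS1, the Rieske iron-sulfur protein, has a processed copy, UQCRFS1P1, whose listed level was as high as its own, so the split of reads between them is uncertain. UQCRFS1 was at 36.4, 36.2 and 36 TPM in parent LC-2/ad cells and at 26.2, 25.6 and 25.3 TPM in treated cells (-0.48 ± 0.05, adjusted p = 0.000116). UQCRFS1P1 was at 34, 40.7 and 39.4 TPM and then at 25.7, 29.3 and 23.5 TPM (-0.52 ± 0.10, adjusted p = 0.0026). Both were lower in LC-2/ad with no overlap. In TPC-1 UQCRFS1 was at 28.3, 30.6 and 30.7 TPM and then at 33, 32.4 and 30.5 TPM, which overlap (0.09 ± 0.07, adjusted p = 0.497). The copy was at 28.7, 24.6 and 27.7 TPM and then at 34.2, 33.4 and 33.9 TPM in TPC-1, higher in every treated library without passing (adjusted p = 0.0513). The other 114 dropped pseudogenes together held between 10 and 24 TPM in a library.

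CYCS codes for cytochrome c, the small haem protein that carries electrons from complex III to complex IV and is also known for its part in apoptosis once released from mitochondria. It had the largest fall of all members in LC-2/ad. The parent libraries were at 199, 212 and 214 TPM and the treated libraries at 109, 110 and 103 TPM. Treated cells thus held 48.5% less, with wide separation between the groups (-0.95 ± 0.05, adjusted p = 2.65e-06). TPC-1 parent cells held 134, 146 and 142 TPM and treated cells 148, 139 and 136 TPM. Those groups overlap, and the 95% interval of the change, -0.12 to 0.13, lies far from the LC-2/ad value.

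Complex IV, the cytochrome c oxidase, had 6 of 12 tested genes lower in LC-2/ad and 0 higher, at a median of -0.21. The shares over all genes tested in LC-2/ad were 24.4% lower and 30.6% higher. COX8A, a small membrane subunit, was at 562, 588 and 603 TPM in parent cells and at 394, 373 and 381 TPM in treated cells. All treated libraries were below all parent libraries (-0.61 ± 0.04, adjusted p = 7.78e-06). In TPC-1 COX8A was at 586, 596 and 549 TPM and then at 551, 574 and 536 TPM, with overlap (-0.06 ± 0.05, adjusted p = 0.538).

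COX5A, a subunit facing the matrix, was at 182, 202 and 205 TPM in parent LC-2/ad cells and at 161, 152 and 157 TPM in treated cells (-0.33 ± 0.05, adjusted p = 0.00121). NDUFA4, first assigned to complex I and now known as a complex IV subunit, was at 142, 147 and 140 TPM and then at 114, 118 and 119 TPM (-0.29 ± 0.04, adjusted p = 0.000417). COX7A2 was at 282, 286 and 286 TPM and then at 244, 248 and 210 TPM (-0.29 ± 0.06, adjusted p = 0.00548). In all of these small subunits the treated libraries lay below the parent ones. COX7B was at 113, 105 and 118 TPM and then at 92.5, 91 and 94.9 TPM (-0.27 ± 0.05, adjusted p = 0.0026), and COX6C at 415, 391 and 399 TPM and then at 321, 341 and 348 TPM (-0.26 ± 0.04, adjusted p = 0.00115). The 5 genes that fell beside COX8A had TPC-1 values from -0.06 to 0.20, with none past the threshold.

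The remaining complex IV genes stayed nearer to 0 in LC-2/ad. COX4I1, the largest nuclear subunit, was at 527, 515 and 524 TPM and then at 496, 492 and 509 TPM (-0.07 ± 0.03, adjusted p = 0.0815), and in TPC-1 at 686, 712 and 642 TPM and then at 656, 673 and 705 TPM. COX6A1 was at 526, 537 and 561 TPM and then at 520, 514 and 529 TPM in LC-2/ad (-0.06 ± 0.03, adjusted p = 0.191), and COX6B1 at 193, 193 and 173 TPM and then at 187, 167 and 176 TPM (-0.08 ± 0.06, adjusted p = 0.308). The groups overlapped for COX6A1 and COX6B1, while all treated libraries of COX4I1 were below the parent ones by a small amount. COX7C, the most abundant gene of the complex in LC-2/ad, was at 599, 693 and 618 TPM and then at 551, 609 and 532 TPM, with overlap (-0.17 ± 0.07, adjusted p = 0.0576). Its fall was past the threshold in 6 of 15 alternatives. COX7A2L, known as a factor that joins complexes III and IV into supercomplexes, had a log2 fold change of 0.04 ± 0.06 in LC-2/ad and of -0.22 ± 0.08 for TPC-1 (adjusted p = 0.569 and 0.149). With median-of-ratios scaling 11 of the 12 complex IV genes were lower in LC-2/ad, and with the mitochondrial genes removed 6.

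The tissue isoforms of complex IV were at low levels in both lines, with none above 1.47 TPM in a library. COX6B2, the testis isoform, was at 0.39, 0.757 and 0.474 TPM in parent LC-2/ad cells and at 0.242, 0.483 and 1.05 TPM in treated cells. COX7A1, the muscle isoform, was at 0.285, 0 and 0.234 TPM and then at 1.09, 0 and 1.47 TPM in LC-2/ad. It was at 0.638, 0.265 and 0.9 TPM and then at 0.4, 1.36 and 1.41 TPM in TPC-1. The groups overlapped in each of these, and the isoforms were not tested. COX7B2 was listed above 0 in 1 of the 12 libraries, treated LC-2/ad library 1, at 0.199 TPM.

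Complex V, the ATP synthase, had 15 of 18 tested genes lower in LC-2/ad and 1 higher, at a median of -0.32. These counts are to be read beside the 24.4% lower and 30.6% higher over all genes tested in LC-2/ad. All 5 genes of the F1 head and central stalk fell (ATP5F1A to ATP5F1E), as did all 4 of the peripheral stalk (ATP5PB, ATP5PD, ATP5PF and ATP5PO), and 4 of 6 tested membrane subunits. The counts over the complex were 17 lower with median-of-ratios scaling, and 14 lower with 1 higher once mitochondrial genes were removed. ATP5F1B, the catalytic beta subunit, was at 388, 386 and 381 TPM in parent cells and at 283, 291 and 282 TPM in treated cells. The groups were tight and did not overlap (-0.43 ± 0.03, adjusted p = 1.45e-05). TPC-1 had 504, 504 and 533 TPM and then 515, 515 and 493 TPM of the same transcript, which overlap (-0.02 ± 0.05, adjusted p = 0.872).

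The peripheral stalk holds the head in place while the rotor turns. Its subunit ATP5PD was at 505, 527 and 537 TPM in parent LC-2/ad cells and at 389, 395 and 396 TPM in treated cells (-0.41 ± 0.03, adjusted p = 2.94e-05). ATP5PF, known as coupling factor 6, was at 148, 175 and 158 TPM and then at 123, 121 and 110 TPM (-0.44 ± 0.07, adjusted p = 0.00116). ATP5MJ, a small membrane subunit, was at 209, 232 and 220 TPM and then at 167, 170 and 160 TPM (-0.41 ± 0.05, adjusted p = 0.00022). In these genes, too, no treated library reached the parent range. In TPC-1 the treated libraries of these 3 were also below the parent ones: ATP5PD was at -0.17 ± 0.05, ATP5PF at -0.22 ± 0.07 and ATP5MJ at -0.23 ± 0.06, with adjusted p of 0.0856, 0.0975 and 0.0653. ATP5PB, also of the peripheral stalk, was at 412, 382 and 402 TPM in parent LC-2/ad cells. In treated LC-2/ad cells it was at 313, 286 and 298 TPM, without overlap (-0.41 ± 0.04, adjusted p = 0.00014). Its TPC-1 groups overlapped (-0.08 ± 0.05, adjusted p = 0.385). ATP5MF, a membrane subunit and the most abundant complex V transcript of LC-2/ad, was at 914, 931 and 858 TPM and then at 684, 684 and 675 TPM (-0.40 ± 0.04, adjusted p = 5.08e-05). ATP5F1A, the most abundant one of TPC-1, was at 563, 563 and 575 TPM and then at 553, 530 and 522 TPM there, all lower without passing (-0.08 ± 0.04, adjusted p = 0.299).

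The sum over the complex fell by 19.3% in LC-2/ad. The TPC-1 sum went from 5545, 5702 and 5658 TPM to 5286, 5516 and 5342 TPM, lower in every treated library and by 4.49% in the mean.

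The c ring, the rotor that protons turn, is built from a single mature protein made by 3 genes, ATP5MC1, ATP5MC2 and ATP5MC3, whose precursors differ in the import signal. ATP5MC1 was at 197, 195 and 208 TPM in parent LC-2/ad cells and at 143, 145 and 144 TPM in treated cells (-0.47 ± 0.04, adjusted p = 3.21e-05). ATP5MC3 was at 153, 162 and 161 TPM and then at 135, 138 and 134 TPM (-0.22 ± 0.04, adjusted p = 0.00158). Both were lower in every treated library. ATP5MC2 was at 284, 296 and 298 TPM and then at 333, 327 and 331 TPM, so that all treated libraries were above the parent ones (0.17 ± 0.03, adjusted p = 0.00254). This rise kept its sign in every alternative and was not past the threshold with median-of-ratios scaling (0.08, adjusted p = 0.0798).

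The c-ring genes followed another pattern in TPC-1. ATP5MC2 was at 446, 450 and 439 TPM in parent cells and at 376, 400 and 385 TPM in treated cells, lower in every treated library and the 1 member called in that line (-0.20 ± 0.04, adjusted p = 0.0348). The call was lost in 10 of 15 alternatives, with an adjusted p of up to 0.162. ATP5MC1 was at 412, 430 and 460 TPM and then at 334, 390 and 354 TPM, also without overlap and with a larger change (-0.27 ± 0.07, adjusted p = 0.0542), and it was past the threshold in 5 of 15 alternatives. ATP5MC3 was at 338, 315 and 302 TPM and then at 323, 368 and 315 TPM, which overlap (0.07 ± 0.07, adjusted p = 0.606).

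**Figure D3:**
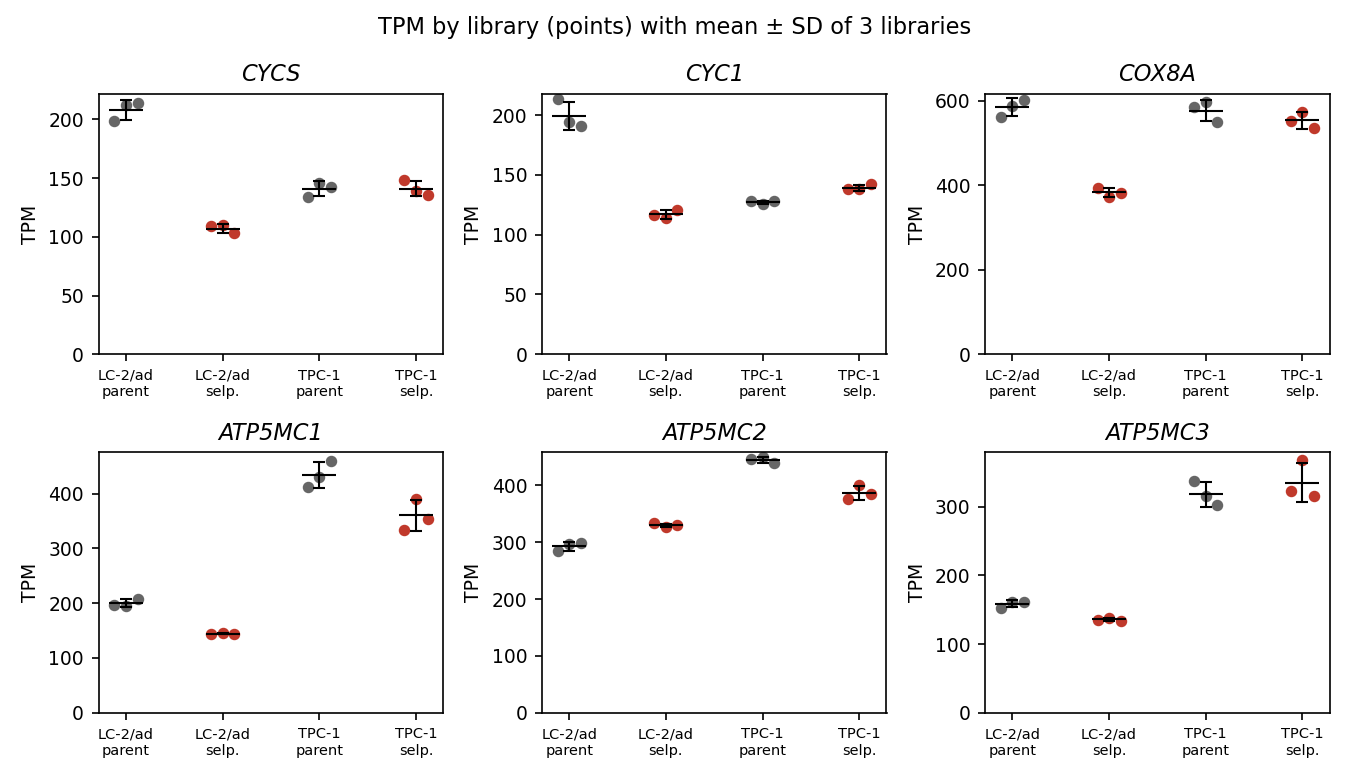
TPM in each library (points) with the mean ± SD of 3 libraries for CYCS, CYC1, COX8A and the c-ring genes ATP5MC1, ATP5MC2 and ATP5MC3, parent in grey and selpercatinib (selp.) in red. In LC-2/ad the treated points lie below the parent points in 5 of the 6 panels and above them for ATP5MC2 (not past the threshold with median-of-ratios scaling), and in TPC-1 the treated points of ATP5MC1 and ATP5MC2 lie below the parent points.

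The change after treatment was then compared between the lines. The difference (log2 fold change in TPC-1 less that in LC-2/ad, limma over all 12 libraries) passed for 42 of 80 members, with the TPC-1 value above the LC-2/ad value in 40 of them (called higher) and below it in 2 (called lower). Over the 11996 genes tested 22.2% were called higher and 14.4% lower, 36.6% together, with a median of 0.04 against 0.24 for the members. In 68 of the 80 members the TPC-1 value was above the LC-2/ad value. With the mitochondrial genes removed the counts were 26 higher and 4 lower, against 17.1% higher and 19% lower of all genes. With median-of-ratios scaling they were 40 and 1, against 25.7% and 13.6% of all genes. Of the 42 calls 27 held in every alternative. By complex, the difference passed as higher for 16 of 36 genes of complex I, 1 of 4 of complex II, 5 of 9 of complex III, CYCS, 6 of 12 of complex IV and 11 of 18 of complex V.

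The largest differences were those of CYCS at 0.96 ± 0.07 (adjusted p = 6.97e-07) and CYC1 at 0.89 ± 0.06 (adjusted p = 5.13e-07), the carrier and the subunit that loads it. They were followed by NDUFS6 at 0.64 ± 0.08, ATP5F1D, the delta subunit of the central stalk, at 0.58 ± 0.10, UQCRFS1 at 0.57 ± 0.08 and COX8A at 0.55 ± 0.06. ATP5F1D was at 232, 218 and 234 TPM and then at 170, 172 and 174 TPM in LC-2/ad, and at 176, 188 and 180 TPM and then at 183, 231 and 205 TPM in TPC-1. Its groups were apart in LC-2/ad and overlapped in TPC-1. In the other direction the difference was largest for ATP5MC2 (-0.38 ± 0.05, adjusted p = 7.85e-05), a call that held in all 21 alternatives. ATP5MC1 was negative in both lines, and its difference of 0.20 ± 0.08 did not pass (adjusted p = 0.0711). Across the 80 members, as a description over genes that share libraries, the fold changes of the 2 lines had a Pearson correlation of -0.07 and a Spearman correlation of -0.01.

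**Figure D4:**
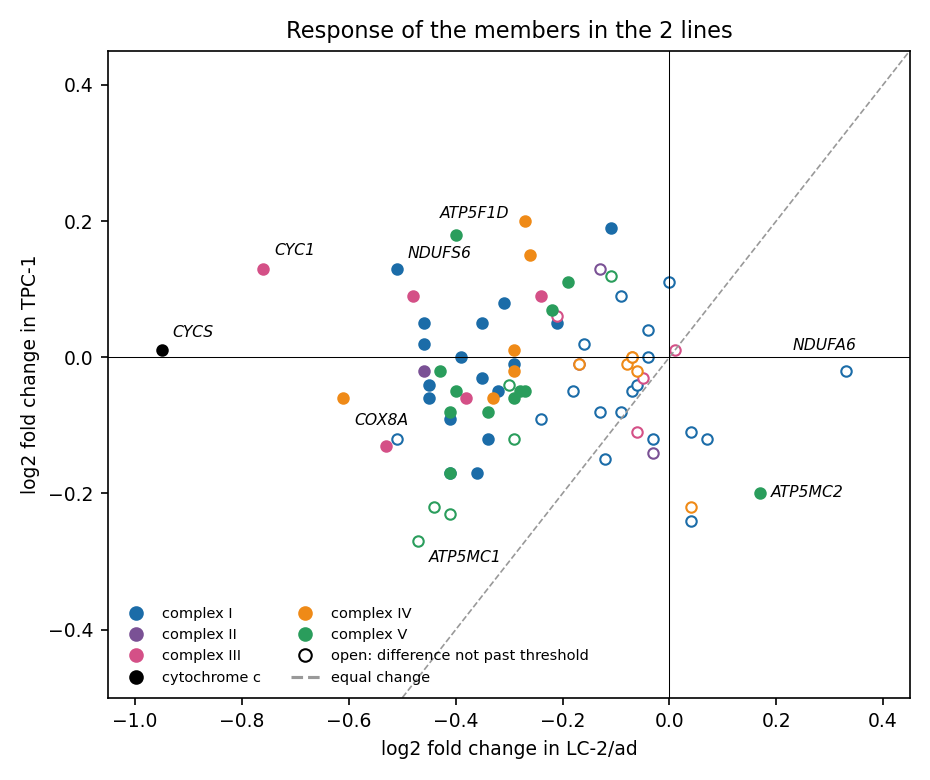
log2 fold change of 79 tested members in LC-2/ad (x axis) and TPC-1 (y axis), coloured by complex and filled where the difference of the lines passed limma's test, with a dashed line of equal change. Of these points 68 lie above the line, with CYCS and CYC1 farthest from it, and ATP5MC2 is the filled point below it.

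The subunits made from mitochondrial DNA, which join the nuclear ones in complexes I, III, IV and V, went the other way in LC-2/ad. All 13 of them rose there, at a median of 0.59 (range 0.35 to 0.77), against 30.6% of all genes called higher. With median-of-ratios scaling all 13 rose too, at a median of 0.49, against 24.4% of all genes. The summed level of the 13 was 97234, 97761 and 98247 TPM in parent cells and 147240, 140133 and 149519 TPM in treated cells, higher by 49.0% with no overlap. In TPC-1 0 of 13 passed by limma, against 4.96% of all genes, at a median of -0.10. The sums overlapped there, at 64063, 69595 and 75555 TPM before and 63240, 58334 and 68201 TPM after treatment. The ratio of mitochondrially coded to nuclear subunit TPM was 5.11 ± 0.031 (SD, n = 3) in LC-2/ad parent cells and 9.13 ± 0.36 in treated cells, against 4.0 ± 0.34 and 3.73 ± 0.34 in TPC-1. This ratio does not depend on the scaling of a library. The difference between the lines passed as lower for all 13 mitochondrially coded genes, at a median of -0.73, against 14.4% of all genes called lower.

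**Figure D5:**
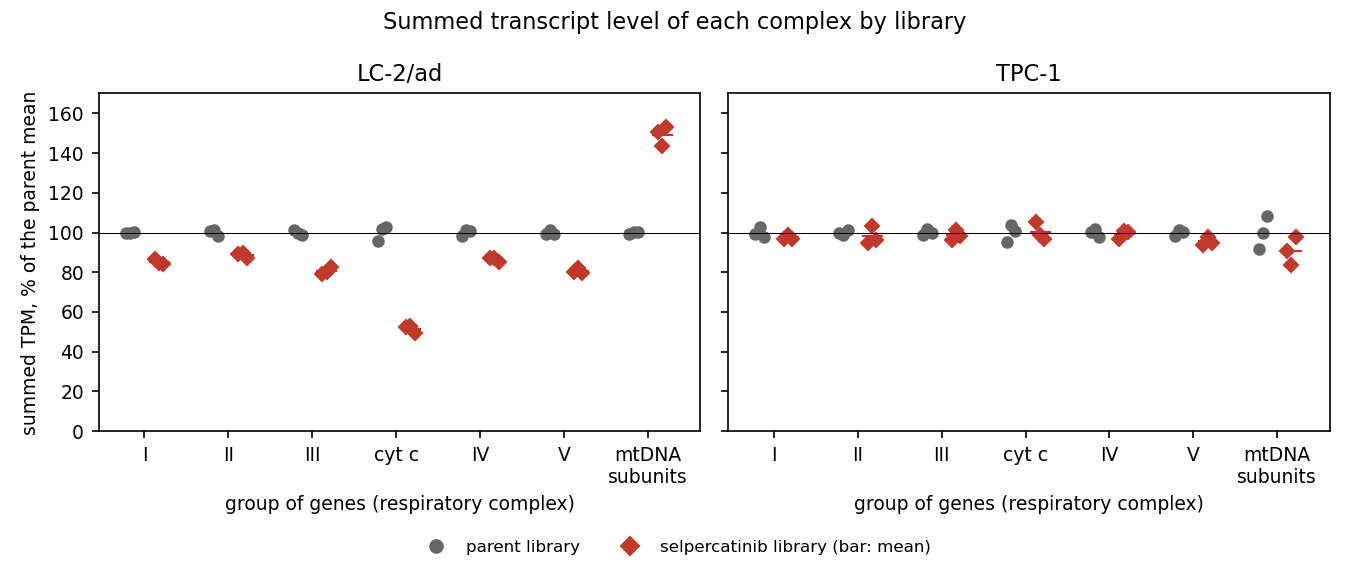
Summed TPM of each complex and of the 13 subunits coded by mitochondrial DNA in each library, as a percentage of the mean of the 3 parent libraries of the line (grey circles parent, red diamonds selpercatinib, bar at the treated mean). In LC-2/ad every nuclear group lies below its parent libraries and the mitochondrially coded group lies 49.0% above, whereas in TPC-1 the treated means lie between -9.29% and 0.411% from the parent mean.

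Genes that build the complexes without being part of them were also counted, and their shares are to be read beside the 24.4% lower and 30.6% higher over all genes tested in LC-2/ad. Of 16 complex I assembly genes 8 fell and 1 rose in LC-2/ad, a rise not past the threshold with median-of-ratios scaling (10 lower and 0 higher), with the largest falls in NDUFAF4 (-1.01 ± 0.15), NDUFAF8 (-0.78 ± 0.06), COA1 (-0.67 ± 0.05) and NDUFAF2 (-0.66 ± 0.07). Of 9 complex III assembly genes 7 fell (77.8%), led by UQCC3 (-0.68 ± 0.07) and UQCC2 (-0.64 ± 0.04), and 3 were lower once mitochondrial genes were removed. Of 25 complex IV assembly genes 9 fell (36.0%), among them the copper chaperone COX17 (-0.70 ± 0.08), CMC2 (-0.74 ± 0.05) and CMC1 (-0.61 ± 0.09), and 2 rose (8.0%), SURF1 (0.28 ± 0.04) and COA5 (0.32 ± 0.10). With median-of-ratios scaling that list had 10 lower and 1 higher. Complex II assembly had 1 of 4 lower (SDHAF3, -0.31 ± 0.08), which is close to the share over all genes. The list of complex V assembly genes and the inhibitor ATP5IF1 had 3 of 6 lower, including TMEM70 (-0.52 ± 0.07), which helps to form the c ring. In TPC-1 0 of these assembly genes fell and 2 rose by limma, NDUFAF8 (0.54 ± 0.08, adjusted p = 0.00509) and CMC2 (0.25 ± 0.06, adjusted p = 0.0399). These few calls are to be read beside the 1.21% lower and 3.75% higher over all genes tested in TPC-1. With median-of-ratios scaling 2 complex I and 1 complex IV assembly genes were lower in that line, so the count of 0 depends on the scaling.

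NDUFAF8 and CMC2 thus moved in opposite directions in the 2 lines, each past the threshold. NDUFAF8 differed by 1.32 ± 0.10 between the lines and CMC2 by 0.99 ± 0.07 (adjusted p = 9.22e-07 and 3.46e-07). With median-of-ratios scaling the TPC-1 complex IV assembly list had 0 genes higher, so the rise of CMC2 in TPC-1 was not past the threshold there.

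For the factors known to drive respiratory gene transcription, the share called in either direction in LC-2/ad was near that of all genes, with every call lower. In LC-2/ad 5 of 9 tested ones passed (55.6%, against 55.0% of all genes in either direction), and all 5 were lower (against 24.4% of all genes): TFAM, which packs and transcribes mitochondrial DNA (-0.82 ± 0.13, adjusted p = 0.00104), GABPB1 (-0.40 ± 0.08), the coactivator PPRC1 (-0.38 ± 0.06), YY1 (-0.28 ± 0.09) and NRF1 (-0.24 ± 0.09, adjusted p = 0.0493). With median-of-ratios scaling 5 were lower and 0 higher, against 30.6% and 24.4% of all genes. With the mitochondrial genes removed 3 were lower and 1 higher, against 19.7% and 36.3% of all genes. GABPA, the DNA-binding partner of GABPB1, stood at 0.00 ± 0.08, ESRRA at 0.05 ± 0.04, and PPARGC1A was below the filter in both lines. In TPC-1, where 4.96% of all genes passed, 0 of 8 did. Of 9 genes that feed electrons to ubiquinone by other routes or supply NADPH, 2 fell in LC-2/ad (CHDH, -0.76 ± 0.21, and GPD2, -0.41 ± 0.07) and 3 rose (PRODH, 0.78 ± 0.05, ETFDH, 0.52 ± 0.11, and NNT, 0.12 ± 0.05). In TPC-1 0 of 8 of them passed, to be read beside the same 4.96%. The LC-2/ad shares of 22.2% lower and 33.3% higher are close to those of all genes, and the split turned to 4 lower and 2 higher with median-of-ratios scaling. Of 3 tested respiratory genes on a list of those that the symbol rule leaves out, 2 fell in LC-2/ad, with a list median of -0.34. They were NDUFAB1, the acyl carrier protein of complex I (-0.51 ± 0.04), and ATP5IF1, counted above with complex V assembly. NDUFA4L2 did not pass (0.43 ± 0.51).

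Properties that the choice of genes did not use ran little along with the size of the change. Across the 80 members in LC-2/ad, the Spearman correlation of the log2 fold change was -0.15 with the parent TPM and 0.18 with the length of the coding transcript. Members that fell lay on most chromosomes: on chromosome 19, which holds 10 tested members, 4 fell, on chromosome 5 it was 5 of 6, and on chromosome 3 it was 0 of 3. These are descriptions over genes of the same libraries, with no test.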

How the data were processed

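RNA-seq was done on 12 libraries of 4 groups. The authors deposited TPM per Ensembl gene in 1 table per line, and each library summed to 1000000. Per the submitters' processing notes, bcl2fastq 2.20.0, Salmon and GRCh38 were used, and the annotation and the way transcripts were summed to genes are not given in the sources used here. TPM keep no read count, so depth is unknown and precision was taken from the spread between libraries.

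Gene symbols were found for 34436 of 37247 rows (92.5%), and 2627 rows without a name held 2.63% to 2.86% of the TPM. Within each line log2(TPM + 1) of treated and parent libraries was compared with limma 3.58.1 in R 4.3.3 (eBayes with a variance trend, two-sided), for genes whose mean over the line reached 1 TPM. Benjamini-Hochberg adjustment ran over all of these. The difference of the lines was fitted over all 12 libraries. SE and 95% intervals are limma's, and a fold change on this scale is smaller than the true one for low genes. Alternatives were pseudocounts of 0.1 and 5, the filter dropped or raised to 5 TPM, scaling by median of ratios within a line, leaving out mitochondrial genes, a fit with no trend, a replicate block, each library left out and, added after seeing the data, protein-coding genes alone. The fits were tested on simulated data. Coordinates of exons come from GENCODE 29 and promoters from RefSeq (GRCh38.p14). Python 3.11.15, pandas 2.3.3, numpy 2.4.6, scipy 1.17.1 and matplotlib 3.10.9 were used.

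Values in every library are given for the members with the largest called changes in each complex, for complex II, CYC1, CYCS, the most abundant members, isoform pairs and members that moved against their complex. Genes outside that rule that are named, such as NDUFA6 and UQCRFS1P1, were chosen after their values were seen. The values of 1 tested member are not reported here, and it is counted in the totals but left out of the plots of single fold changes. The members, the other lists and the tests were chosen with earlier results of these data known.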

Additional observations from a re-analysis of the deposited data

Results flagged for a closer look

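The change after selpercatinib differed between the lines, by a test of the difference itself in limma, for 42 of the 80 tested members. Over all 11996 genes tested this difference passed for 36.6%. The named differences (TPC-1 minus LC-2/ad, log2) were 0.96 for CYCS, 0.89 for CYC1, 0.64 for NDUFS6, 0.58 for ATP5F1D, 0.57 for UQCRFS1 and 0.55 for COX8A, where LC-2/ad had the fall. It was -0.38 for ATP5MC2, which was higher in treated LC-2/ad cells and lower in treated TPC-1 cells. For UQCRFS1 the listed level of its processed copy moved alike, with a difference of 0.84 ± 0.13. The share of mitochondrial DNA transcripts rose in the same LC-2/ad libraries, and with the mitochondrial genes removed the difference passed for 26 members as higher and 4 as lower. Of all genes tested, 17.1% were then called higher and 19% lower.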

How the results depend on the processing

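The values counted here are those of members past the threshold in the main fit or in an alternative. Over all alternatives 2002 of them kept their side of the threshold, 126 were no longer past it and 59 were newly past it. In 0 cases did the direction change while a value was past the threshold in either fit. Values short of the threshold could change sign: COX4I1 in LC-2/ad, at -0.066 in the main fit, reached 0.013. The LC-2/ad median of -0.27 became -0.235 without the filter, -0.367 with median-of-ratios scaling and -0.194 with the mitochondrial genes removed, and ran from -0.28 to -0.248 with 1 library left out. LC-2/ad members called higher numbered 0 with median-of-ratios scaling, 4 with the mitochondrial genes removed, and 1 to 2 with 1 library left out (2 without parent library 3 or treated library 2). The TPC-1 median was -0.088 with median-of-ratios scaling. TPC-1 genes called, 636, fell to 272 without the filter and 356 without the variance trend, and ran from 292 to 815 with 1 library left out, being 337 and 292 without parent libraries 2 and 3 and 335 and 339 without treated libraries 1 and 2. TPC-1 members lower, 1, were 3 at a mean TPM of at least 5, 3 among protein-coding genes alone, 2 with the mitochondrial genes removed, 0 without the filter, with median-of-ratios scaling and without the variance trend, and 0 to 1 with 1 library left out.

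The replicate numbers did not pair the libraries, since same-numbered parent and treated libraries deviated together with correlations of -0.04, -0.01 and -0.05 in LC-2/ad and 0.05, -0.03 and 0.04 in TPC-1. With the replicate number as a block, 51 members were lower in LC-2/ad, 0 in TPC-1, and 39 differed between the lines. Depth is unknown, so a limit for low genes such as NDUFA6 cannot be given.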
